A study of Mus musculus with 43 samples.

Results

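The germline and meiosis genes of mouse embryonic stem cells were 46 genes named by symbol for their roles in meiotic entry, synapsis, recombination, the piRNA pathway and germ cell regulation. All 46 were found among the 22462 genes of the table. E14 cells (ES-E14TG2a, an embryonic stem cell line) were grown with serum and LIF on gelatin, as control cells and as a knockout of MTF2, a Polycomb-like subunit of Polycomb repressive complex 2 (PRC2). The results rest on 6 RNA-seq libraries of polyadenylated RNA, 3 from control and 3 from knockout cells, which the series design calls biological replicates. The authors gave 1 pooled FPKM value per gene and group (fragments scaled to transcript length and library size), so every level below is a pooled value with no SD, and depth per library is unknown. The labels do not say whether the knockout cells came from 1 clone. The ChIP-seq samples of the series were not analysed here.

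Germline genes are used by cells that will become eggs or sperm, and most are silent in the body's other tissues. In embryonic stem cells they are known to be held down by DNA methylation and by a non-canonical Polycomb complex (PRC1.6) whose DNA-binding subunits E2F6 and MGA/MAX recognise E2F sites and E-boxes. A number of them are still transcribed at low levels in serum-grown embryonic stem cells. MTF2 is known to bring PRC2 to unmethylated CpG-rich DNA.

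The labels were checked first. Mtf2 transcripts fell but were still present in the knockout, at 44.7 FPKM against 74.3 FPKM in control cells (q = 0.0496 by Cuffdiff, from the authors' deposited table). Of 8 embryonic stem cell markers 7 were not called and 1, Tfcp2l1, was called higher (34.01 to 60.8 FPKM), and they summed to 5184 FPKM in control cells against 5085 FPKM in the knockout. Of 15 broadly used genes, 14 were above 0 in both groups and Hprt was listed at 0 in both. The E14TG2a line is known to lack a functional Hprt gene. Because an exact 0 may be an estimate that failed, such genes are described below as listed at 0, with no fold change.

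Of the 46 germline and meiosis genes, 24 were tested by the authors and 22 were not. In the knockout 6 were called lower (q of at most 0.05 by Cuffdiff, from the authors' deposited table), 0 were called higher and 18 were tested and not called. The background over all 11362 genes tested was 6.03% lower, 6.9% higher and 12.9% in either direction. At an unadjusted Cuffdiff p under 0.05 there were 11 members lower and 3 higher, against 13% and 12.7% of all tested genes. At a q of at most 0.01 there were 4 lower and 0 higher, against 2.96% and 3.86%. With p taken from the deposited statistic as a normal score, 1 member (Sohlh2) was lower, and 29 genes were lower and 95 higher over the whole table. A gene listed at 0 in knockout cells was tested only through its level in control cells, so the share of tested members is not independent of the direction, and 6 of all 46 members is 13.0%, against 3.05% of all genes of the table. The members were chosen with earlier results of these data known, so these and the later member counts and ratios are no independent evidence. The 6 called genes were Stra8, Dmrt1, Rhox13, Syce1, Smc1b and Mov10l1, which lie on 5 chromosomes.

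The groups also differed in how many members were above 1 FPKM. Control cells had 25 members at 1 FPKM or more and knockout cells had 18. Of the 25, 8 were under 1 FPKM in knockout cells, against 4.68% of all genes at 1 FPKM or more in control cells. Of these 8, Stra8, Rhox13 and Smc1b were called lower, and Sohlh2, Nanos3 and Syce3 were tested and not called. Dazl (1.01 FPKM in control cells) and Rhox9 (1.17 FPKM) lay near 1 FPKM and were not tested. In the reverse direction 1 of 18, Rnf17, was above 1 FPKM in the knockout alone, against 8.24% of all genes at 1 FPKM or more there. All 8 were below 20 FPKM in control cells, where 21 members lay. Among all genes between 1 and 20 FPKM in control cells, 7.45% were under 1 FPKM in knockout cells. Of all genes between 1 and 20 FPKM in knockout cells, 12.7% were under 1 FPKM in control cells. The range up to 20 FPKM was chosen after the values were seen.

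The log2 ratio used below has 0.5 FPKM added to the level in each group before knockout is divided by control, and it understates the change of a gene with a low level. Over the 24 members with a mean of at least 1 FPKM over both groups, which are also the 24 tested ones, the median log2 ratio was -1.03, with an interquartile range of -2.03 to 0.15. Over all 11375 genes of that level it was -0.01. Leaving out the 3 members listed at 0 in knockout cells, the median of the other 21 was -0.52. Some members passed that filter only through their control level, and over all 46 members with no filter the median was -0.16. It was -1.55 without members on chromosomes 8 and 14 and -1.65 without members that share a locus entry. The ratio was at or under -1 in 12 of 24 members and in 5.97% of all such genes. It was at or over 1 in 1 of 24 members and in 9.35% of all such genes. In RNA from whole cultures, fewer cells expressing a gene and less RNA per cell cannot be told apart.

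**Figure D1:**
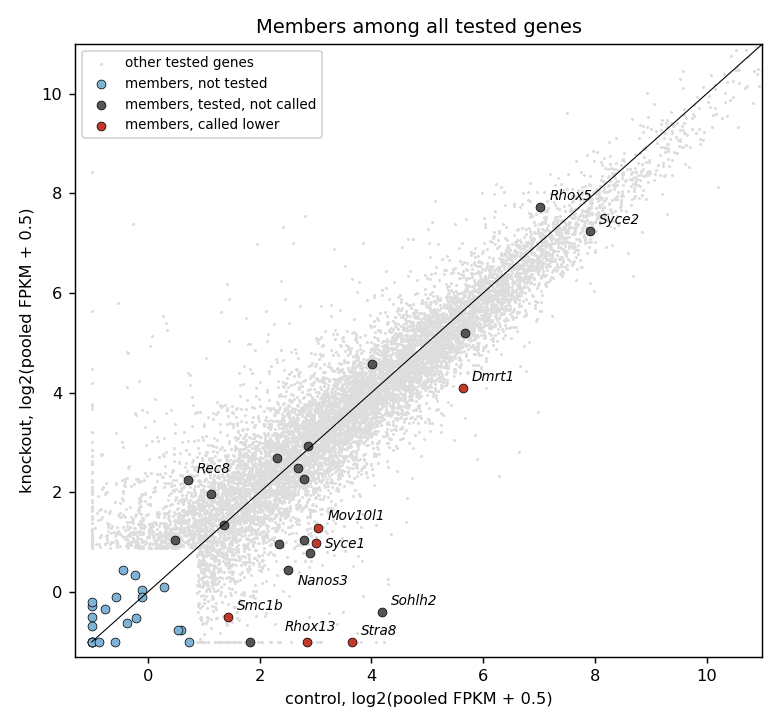
Pooled levels in knockout (vertical) against control cells (horizontal), both as log2(FPKM + 0.5), for the 46 members over all other tested genes in grey, with the line of equal levels. The 6 genes called lower lie below the line, with Stra8 and Rhox13 on the floor of the plot, where knockout FPKM is 0.

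The meiotic entry and germ cell RNA regulators had 1 call among 4 tested of 6. Here and in the roles below, the counts are too small to set against the 6.03% lower and 6.9% higher over all tested genes. Stra8, the retinoic acid-induced gatekeeper of meiosis (chromosome 6 of mm10, from 34920163 to 34939344), had 12.1 FPKM in control cells and was listed at 0 in the knockout (q = 0.0012 in the authors' deposited table). Dazl, an RNA-binding protein gene that licenses germ cells for gametogenesis, was not tested, with 1.01 FPKM in control cells and 0.0871 FPKM in the knockout. Nanos3, which keeps primordial germ cells alive, had 5.23 and 0.855 FPKM and a log2 ratio of -2.08, but was not called (q = 0.584 in the authors' deposited table). The other regulators were close in both groups: Ddx4, the Vasa RNA helicase gene, had 2.08 and 2.03 FPKM. Dnd1, an RNA-binding partner of the Nanos proteins, had 5.92 and 5.08 FPKM, and it shares its locus entry with Wdr55, so reads could be split between the pair. Nanos2, a male germ cell regulator, was at 0.170 FPKM in control cells and listed at 0 in the knockout.

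Of the germ cell transcription and chromatin regulators, 1 of 3 tested was called. Dmrt1, a DM-domain transcription factor of the testis and of spermatogonia (chromosome 19, 25505618 to 25604329), fell from 49.4 to 16.6 FPKM, a log2 ratio of -1.55 (q = 0.0012 in the authors' deposited table). Sohlh2, a basic helix-loop-helix factor of early germ cells, had a wider gap, 17.8 FPKM in control cells and 0.254 FPKM in the knockout, with a log2 ratio of -4.60. It was not called (q = 0.495 in the authors' deposited table), although its deposited test statistic, -3.46, was farther from 0 than that of Dmrt1, -2.83. Prdm1, the BLIMP1 gene that starts the primordial germ cell programme, had 4.44 and 5.97 FPKM (q = 0.537 in the authors' deposited table). Figla (listed at 0 and 0.322 FPKM), Taf7l (0.0892 and 0.284 FPKM) and Brdt (listed at 0 and 0.370 FPKM) were not tested, and all 3 were under 1 FPKM in both groups.

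The 4 Rhox genes, homeobox genes of a reproductive cluster on the X chromosome, differed from one another. Rhox13 (chromosome X, 38121219 to 38129967) was at 6.68 FPKM in control cells and listed at 0 in knockout cells (q = 0.0012 in the authors' deposited table). Rhox5, the founding and by far the most abundant member, had a higher pooled level in the knockout, 212 FPKM against 130 FPKM in control cells, a log2 ratio of 0.71 that was not called (q = 0.0600 in the authors' deposited table). Rhox9 was at 1.17 FPKM in control cells and listed at 0 in the knockout, and Rhox6 was at 0.719 and 0.568 FPKM; neither was tested. Rhox6 and Rhox9 are close relatives, so reads may have been split between them.

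The whole cluster holds 34 Rhox genes over 916 kb in the table, of which 27 were listed at 0 in both groups and 4 were tested. Besides Rhox13, Rhox10 (4.05 FPKM in control cells) and Rhox1 (1.92 FPKM) were called lower and listed at 0 in knockout cells, with q of 0.0012 and 0.00303 in the authors' deposited table. Rhox5 was thus the only Rhox gene listed above 1 FPKM in the knockout, whereas 5 were listed above 1 FPKM in control cells. Most genes listed at 0 in both groups are lettered copies of Rhox2, Rhox3 and Rhox4. Reads shared between copies may have been lost, so their 0 values do not show that they are silent. On the X chromosome as a whole the median log2 ratio of 332 tested genes was 0.07, and 11 were called lower and 22 higher.

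**Figure D2:**
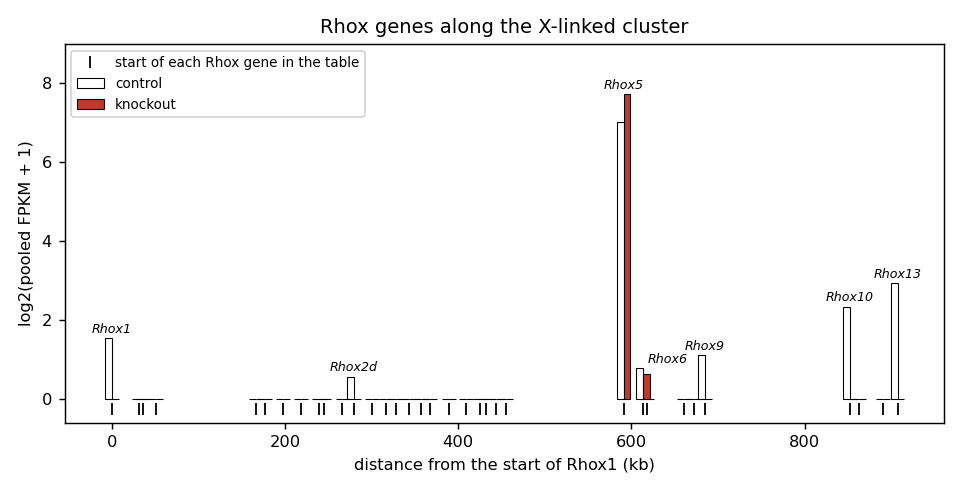
Pooled levels, as log2(FPKM + 1), of the 34 Rhox genes along the cluster, by distance of each gene's start from that of Rhox1 in kb, for control (white) and knockout (red) cells, with ticks at each gene. Rhox1, Rhox2d (0.481 FPKM in control cells, not tested), Rhox9, Rhox10 and Rhox13 have a control bar and no knockout bar. Rhox5 is the tallest in both groups.

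Among the 8 synaptonemal complex and chromosome axis genes, 1 of 5 tested was called. Syce1, a central element gene (chromosome 7, 140777229 to 140787852), fell from 7.57 to 1.49 FPKM, a log2 ratio of -2.02 (q = 0.0240 in the authors' deposited table). The other central element genes were also lower in pooled level but were not called. Syce3 was at 3.06 FPKM in control cells and listed at 0 in the knockout (q = 0.274 in the authors' deposited table). Syce2 was very abundant, with 240 and 151 FPKM and a log2 ratio of -0.66 (q = 0.0772 in the authors' deposited table). It shares its locus entry with Gcdh, so part of that level may belong to its neighbour.

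The axis genes split. Hormad2, a HORMA-domain axis protein gene, had 6.94 and 1.22 FPKM, a log2 ratio of -2.11 (q = 0.111 in the authors' deposited table). Sycp3, the lateral element gene, was higher in pooled level, with 1.68 and 3.43 FPKM, and was not called (q = 0.739 in the authors' deposited table); it shares its entry with Chpt1. Sycp1, which spans the complex as its transverse filament, was at 0.354 and 0.773 FPKM and was not tested. Sycp2 and Hormad1 were listed at 0 in both groups.

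The 3 meiotic cohesin genes, whose products replace mitotic cohesin subunits on meiotic chromosomes, were all tested and pointed in different directions. Smc1b (chromosome 15, 85064691 to 85131957) fell from 2.201 to 0.204 FPKM, a log2 ratio of -1.94 (q = 0.0333 in the authors' deposited table). Rec8, the meiotic kleisin, had 1.14 and 4.24 FPKM, a log2 ratio of 1.53, the highest of any tested member, and was not called (q = 0.0764 in the authors' deposited table). Stag3 had 15.6 and 23.4 FPKM and was not called (q = 0.0929 in the authors' deposited table). Rec8 lies on chromosome 14, where the median log2 ratio of 384 tested genes was 0.70, with 116 called higher and 10 lower. The other members there, Piwil2 and Rnf17, had log2 ratios of -0.52 and 0.57. The part of the chromosome in these values was not tested.

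Of the 6 recombination genes, 2 were tested and 0 were called by Cuffdiff, both with an unadjusted p under 0.05. Dmc1, the meiotic recombinase that pairs homologous DNA, had 4.59 and 1.44 FPKM, a log2 ratio of -1.39 (q = 0.0562 in the authors' deposited table). Zcwpw1, a reader of the histone marks placed at recombination sites, was among the more abundant members with 50.7 and 36.1 FPKM (q = 0.164 in the authors' deposited table). It shares its locus entry with Pilra. Spo11, which makes the initiating DNA breaks, was listed at 0 in both groups. The crossover genes were under 1 FPKM in both groups and not tested, with Msh4 at 0.433 and 0.535 FPKM, Msh5 at 0.231 and 0.858 FPKM, and Tex11 at 0.958 and 0.0883 FPKM.

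In the piRNA pathway, which silences transposons in the germline, 1 of 5 tested genes was called among 11. Mov10l1, the RNA helicase that feeds precursors into piRNA production (chromosome 15, 88982909 to 89055152), fell from 7.81 to 1.95 FPKM, a log2 ratio of -1.76 (q = 0.0012 in the authors' deposited table). Mael, the Maelstrom gene, had nearly the same levels, 6.43 and 1.57 FPKM, with a log2 ratio of -1.75, and was not called (q = 0.0646 in the authors' deposited table). Piwil2, the Piwi protein MILI, had 6.45 and 4.33 FPKM (q = 0.251 in the authors' deposited table). Tex19.1, which restrains retrotransposons in germ cells and placenta, was level at 6.81 and 7.18 FPKM (q = 0.932 in the authors' deposited table). Rnf17, a Tudor-domain gene, had 0.897 and 1.58 FPKM (q = 0.361 in the authors' deposited table). The remaining 6 (Piwil1, Piwil4, Tdrd1, Tdrd9, Asz1 and Tex15) were under 1 FPKM in both groups and were not tested, as were Tex101 and Slc25a31, a sperm surface protein gene and a testis ADP/ATP carrier gene.

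**Figure D3:**
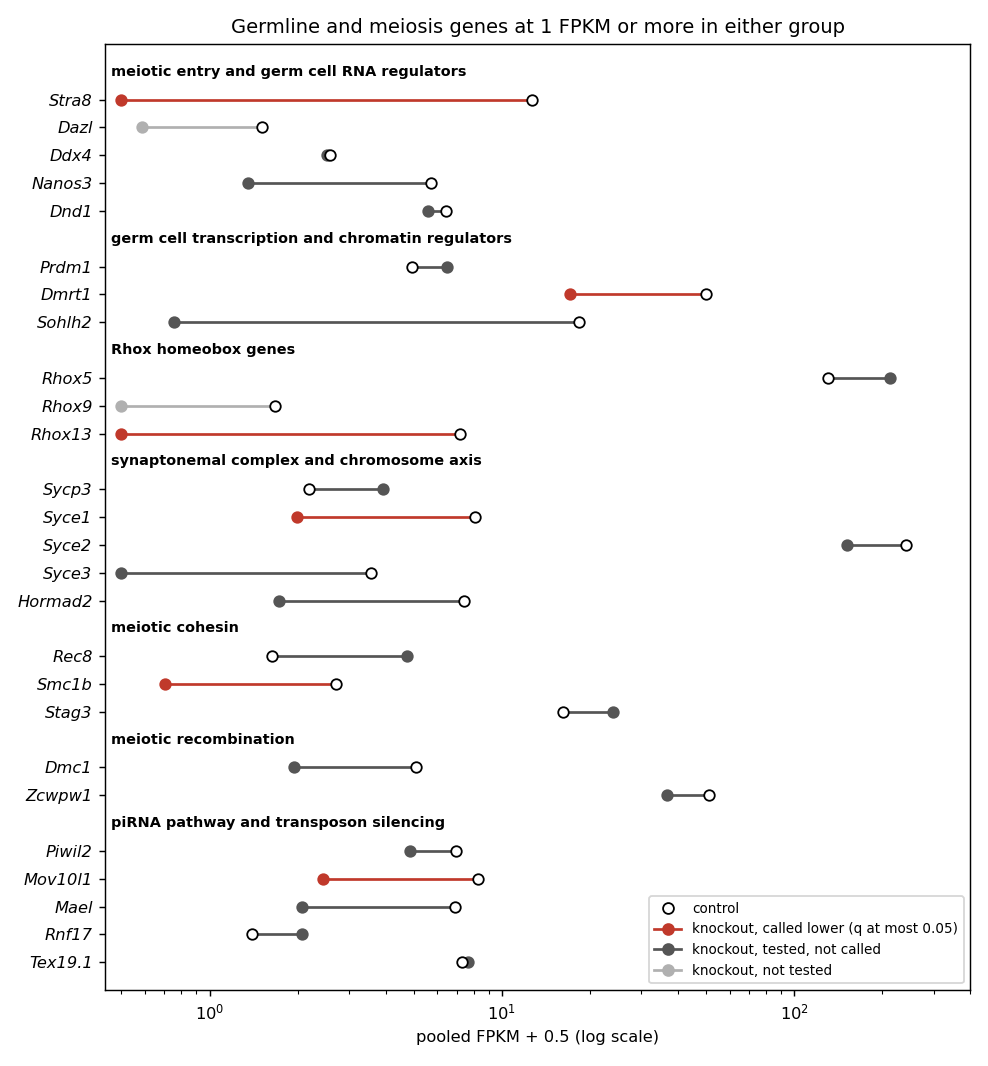
Pooled FPKM + 0.5 (log axis) of the 26 members at 1 FPKM or more in either group, ordered by role, with control cells as open circles and knockout cells as filled circles coloured by the authors' call. The 6 red lines are the called genes, and Prdm1, Rhox5, Sycp3, Rec8, Stag3, Rnf17 and Tex19.1 have their knockout point to the right of the control point.

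The promoters of 37 members were matched by symbol in the RefSeq table (GRCm38.p6, the assembly of mm10), among them those of 5 called genes. Dmrt1 is among the 9 members without an entry, and 4 of those 9 were tested. The 250 bases before the start of each called gene are shown because MTF2 is known to bind CG-rich DNA. Capitals mark the letters CACGTG (an E-box, the same on both strands) and TCCCGC or its complement GCGGGA (E2F6 letters).
Stra8 (chr6:34920698-34920947, plus strand): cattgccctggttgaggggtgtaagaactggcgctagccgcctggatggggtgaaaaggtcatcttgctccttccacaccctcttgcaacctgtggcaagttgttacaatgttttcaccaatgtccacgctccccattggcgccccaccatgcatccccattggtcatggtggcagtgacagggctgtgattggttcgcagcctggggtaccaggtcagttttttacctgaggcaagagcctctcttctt
Syce1 (chr7:140787855-140788104, minus strand): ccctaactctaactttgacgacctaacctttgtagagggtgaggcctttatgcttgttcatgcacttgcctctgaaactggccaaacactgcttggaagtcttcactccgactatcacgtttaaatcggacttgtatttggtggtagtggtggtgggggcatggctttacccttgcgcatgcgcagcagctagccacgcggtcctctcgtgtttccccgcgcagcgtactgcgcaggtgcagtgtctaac
Smc1b (chr15:85131958-85132207, minus strand): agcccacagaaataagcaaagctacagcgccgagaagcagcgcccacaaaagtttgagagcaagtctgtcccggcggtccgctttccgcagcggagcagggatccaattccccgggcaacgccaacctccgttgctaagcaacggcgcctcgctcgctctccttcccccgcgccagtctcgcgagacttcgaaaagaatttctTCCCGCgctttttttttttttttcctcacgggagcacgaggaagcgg
Mov10l1 (chr15:88982744-88982993, plus strand): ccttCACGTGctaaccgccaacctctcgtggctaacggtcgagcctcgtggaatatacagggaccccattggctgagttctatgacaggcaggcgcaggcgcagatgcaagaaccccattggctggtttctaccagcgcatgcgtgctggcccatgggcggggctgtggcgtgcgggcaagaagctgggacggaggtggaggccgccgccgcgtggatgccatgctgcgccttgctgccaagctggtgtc
Rhox13 (chrX:38120590-38120839, plus strand): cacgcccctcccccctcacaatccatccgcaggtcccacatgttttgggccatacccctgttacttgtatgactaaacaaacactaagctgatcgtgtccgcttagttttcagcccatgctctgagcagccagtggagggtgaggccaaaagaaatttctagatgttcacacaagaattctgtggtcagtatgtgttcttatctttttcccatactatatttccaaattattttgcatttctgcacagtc
The 5 windows differ widely in CG content. They hold 5, 13, 25, 19 and 4 CG dinucleotides for Stra8, Syce1, Smc1b, Mov10l1 and Rhox13. The E2F6 letters are in Smc1b alone, 47 bases before the start, and the E-box in Mov10l1 alone, at base -246. The RefSeq start of Stra8 lies 785 bases from the 5′ end of its entry in the authors' deposited table and that of Rhox13 379 bases.

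Of the 15 tested members with a promoter entry that were not called, 4 hold both kinds of letters in the window from 250 bases before to 50 after the start. They are shown, again as the 250 bases before the start. They were picked for their letters, so a difference in letters from the called genes is set by that choice. Of the 15, 8 hold either kind, and in the 200 bases before the start alone 2 hold both.
Ddx4 (chr13:112652311-112652560, minus strand): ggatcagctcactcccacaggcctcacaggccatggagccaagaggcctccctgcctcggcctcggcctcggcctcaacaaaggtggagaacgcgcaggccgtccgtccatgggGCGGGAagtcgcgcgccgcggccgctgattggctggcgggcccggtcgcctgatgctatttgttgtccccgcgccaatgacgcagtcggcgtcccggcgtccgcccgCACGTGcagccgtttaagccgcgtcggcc
Mael (chr1:166238745-166238994, minus strand): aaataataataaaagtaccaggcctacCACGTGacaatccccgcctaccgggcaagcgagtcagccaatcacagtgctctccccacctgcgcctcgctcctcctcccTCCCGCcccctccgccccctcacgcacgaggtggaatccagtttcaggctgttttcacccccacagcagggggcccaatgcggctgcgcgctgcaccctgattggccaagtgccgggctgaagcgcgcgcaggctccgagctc
Stag3 (chr5:138280259-138280508, plus strand): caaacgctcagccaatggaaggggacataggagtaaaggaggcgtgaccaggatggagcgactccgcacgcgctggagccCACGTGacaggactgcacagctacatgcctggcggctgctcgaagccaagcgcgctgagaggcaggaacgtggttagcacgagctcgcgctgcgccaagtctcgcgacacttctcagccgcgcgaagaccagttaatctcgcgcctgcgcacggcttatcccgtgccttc
Sycp3 (chr10:88459337-88459586, plus strand): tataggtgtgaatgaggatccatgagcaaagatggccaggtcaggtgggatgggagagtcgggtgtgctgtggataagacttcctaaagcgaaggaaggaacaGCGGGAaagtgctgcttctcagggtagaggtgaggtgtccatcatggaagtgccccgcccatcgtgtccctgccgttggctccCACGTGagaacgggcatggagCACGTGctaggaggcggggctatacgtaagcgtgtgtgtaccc
In Stag3 the E2F6 letters run across the start and are not capitalised. Mael had a log2 ratio of -1.75, Ddx4 of -0.03, Stag3 of 0.57 and Sycp3 of 0.85. None of the 5 called promoters holds both kinds; these counts are too small to compare.

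Across all 37 member promoters, the E-box letters were in 13 (35.1%), against 7.24% of 27025 promoters, 1 per gene, and 10.7% of 8737 promoters of tested genes. The E2F6 letters were in 13 (35.1%), against 20.02% of all promoters and 37.7% of those of tested genes. Both kinds were in 7 of 37 (18.9%), against 2.05% of all and 4.18% of tested genes. In the 200 bases before the start alone, both kinds were in 3 of 37 (8.11%), against 1.14% of all and 2.30% of tested genes. The ratio of observed to expected CG had a median of 0.67 in member promoters, 0.39 in all promoters and 0.78 in those of tested genes, and ran from 0.33 in Rhox13 to 1.08 in Smc1b among the called genes. The members not tested held the E-box in 8 of 17. These are counts of letters, not of bound sites. For 35 of the 37 the RefSeq start lay within 1 kb of the 5′ end of the entry in the authors' deposited table. The others were Msh4, at 1247 bases, and Rhox5, at 50243 bases. The Rhox5 window may thus not belong to the entry that carries its level.

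**Figure D4:**
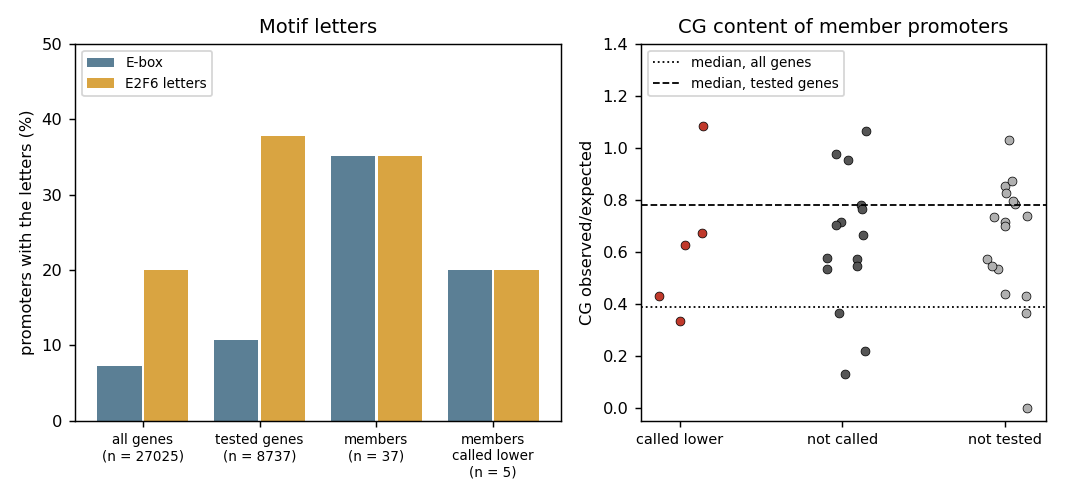
Left, share of promoters (%) from 250 bases before to 50 after the start that hold the E-box or E2F6 letters, in all genes, tested genes, members and called members. Right, the ratio of observed to expected CG in each member promoter by call, with the medians of all and of tested genes as lines; the 5 called members spread from 0.33 to 1.08.

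The genes beside the called members were then read. Of the 12 nearest tested genes, 1 on each side of each called member, 4 were called lower, 0 higher by Cuffdiff and 8 were not called, against 6.03% lower over all tested genes. The gaps ran from 1.86 kb (Fam118a beside Smc1b) to 1001 kb (Smarca2 beside Dmrt1), so some of these genes are not close, Mtg1 among them at 622 kb from Syce1. Wdr91, 9.29 kb from Stra8, fell from 22.9 to 9.41 FPKM (q = 0.0012 in the authors' deposited table), while Cnot4 on the other side had 11.1 and 10.6 FPKM. Rhox10, the nearest tested gene to Rhox13 on 1 side at 49.5 kb, with Rhox11 and Rhox12 between them, is described above. Fbln1, 74.0 kb from Smc1b, fell from 38.9 to 18.5 FPKM (q = 0.00218 in the authors' deposited table), and Pim3, 117 kb from Mov10l1, from 87.4 to 55.1 FPKM (q = 0.0302 in the authors' deposited table). The nearest genes to Syce1, Mtg1 and Urah, and the nearest to Dmrt1, Kank1 and Smarca2, were not called. Chromosome 15 holds 4 members, Smc1b, Mov10l1, Dmc1 and Syce3, whose log2 ratios are -1.94, -1.76, -1.39 and, with Syce3 listed at 0 in the knockout, no ratio. The median over the 464 tested genes of chromosome 15 was -0.02.

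Other genes of the same pathways, taken from lists written for this comparison, were read next. Of 33 other meiosis genes 29 were in the table, 15 were tested and 0 were called by Cuffdiff (at an unadjusted p under 0.05, 1 lower and 2 higher), with a median log2 ratio of 0.06. Among those not called, Rec114, a partner of the break machinery, had 19.19 and 0.621 FPKM (q = 0.478 in the authors' deposited table), Terb2, a telomere attachment gene, 6.89 and 0.202 FPKM (q = 0.431 in the authors' deposited table), and Ccnb1ip1, a crossover gene, 0.857 and 4.79 FPKM (q = 0.0888 in the authors' deposited table). Of 14 other piRNA and nuage genes 7 were tested and 0 called by Cuffdiff (1 lower and 0 higher at an unadjusted p under 0.05), with a median log2 ratio of -0.71. Gtsf1, a piRNA factor, had 9.62 and 1.18 FPKM (q = 0.292 in the authors' deposited table). Pld6, the mitochondrial piRNA nuclease gene, had 14.1 and 5.27 FPKM (q = 0.139 in the authors' deposited table). Of the 7, 4 had a log2 ratio below 0 and 3 above 0. The 3 were Pnldc1 (6.96 and 9.75 FPKM), Tdrd12 (2.93 and 4.24 FPKM) and Mybl1 (1.88 and 2.66 FPKM).

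Of 30 other germ cell regulators and germline-restricted genes, 29 were in the table and 13 were tested. By Cuffdiff 4 were called lower and 0 higher (the same counts at an unadjusted p under 0.05). Over all tested genes 6.03% were lower and 6.9% higher. Rpl10l, a retrogene copy of a ribosomal protein gene used in male meiosis, fell from 99.2 to 6.54 FPKM, and Tuba3a, a testis tubulin gene, from 59.2 to 5.86 FPKM. Both have close paralogs, so their levels are uncertain. They were put on the list with their values known from earlier results and are no independent evidence. Tfap2c, a primordial germ cell and trophoblast factor, fell from 16.9 to 7.41 FPKM and Kit, the receptor that germ cells need to survive, from 22.1 to 11.6 FPKM (both q = 0.00379 in the authors' deposited table). The primordial germ cell marker Prdm14 had 6.75 and 8.63 FPKM and was not called, and Dppa3, listed at 0 in control cells and at 0.864 FPKM in the knockout, was not tested.

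The genes known to repress the germline programme in embryonic stem cells were all tested, and most of the 25 (21) were not called. In the knockout 2 were called lower (8%) and 2 higher, close to the 6.03% lower and 6.9% higher over all tested genes. At an unadjusted Cuffdiff p under 0.05, 6 of the 25 were lower and 4 higher, against 13% and 12.7% of all tested genes. Expression of Dnmt3a, which sets new DNA methylation, fell from 100 to 22.7 FPKM and that of Atf7ip, a partner of SETDB1, from 9.56 to 5.26 FPKM (q = 0.0012 and 0.0122 in the authors' deposited table). Hdac2, a histone deacetylase gene, rose from 34.5 to 70.3 FPKM and Tfdp1, the E2F dimerisation partner, from 40.1 to 87.3 FPKM (q = 0.00218 and 0.0012 in the authors' deposited table). Tfdp1 lies on chromosome 8, where the median log2 ratio of 653 tested genes was -0.01, with 75 called higher and 58 lower. The part of the chromosome in its level was not tested. Tfdp1 and Hdac2 are themselves known as partners of PRC1.6. Of its other genes E2f6, Mga, Max, Pcgf6 and L3mbtl2 were not called. E2f6 was at 13.5 and 9.35 FPKM, Mga at 6.57 and 8.27 FPKM and Max at 261 and 191 FPKM. Pcgf6 was at 36.3 and 35.0 FPKM and L3mbtl2 at 85.4 and 96.3 FPKM. Nor were Dnmt1 (224 and 227 FPKM) and Dnmt3b (52.5 and 36.1 FPKM).

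Markers of other cell types were read as well, and most of those called were primitive endoderm markers. Of 11 primitive endoderm markers 9 were called higher and 0 lower in the authors' deposited table, and their summed level was 213 FPKM in control cells and 1457 FPKM in the knockout. Of 9 primordial germ cell markers, 5 of them members, 7 were tested, 2 were called lower and 0 higher. Over all tested genes 6.03% were lower and 6.9% higher. The 2 were Tfap2c and Kit, which were already counted above, and no member was called. Of the 7 tested, 5 had a log2 ratio below 0 and 2 above 0. Summed levels of the 9 were 64.5 and 42.5 FPKM. The 9 genes in the table of a list for 2-cell-like cells (the Zscan4 genes and others) were listed at 0 in both groups. Reads shared between copies of these genes may also have been lost. Of 7 fibroblast markers 6 were under 1 FPKM in both groups. Among 7 Sertoli and gonadal markers Gata4, shared with primitive endoderm, was called higher and 0 were called lower. The part of these shifts in the levels of the germline genes was not tested.

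**Figure D5:**
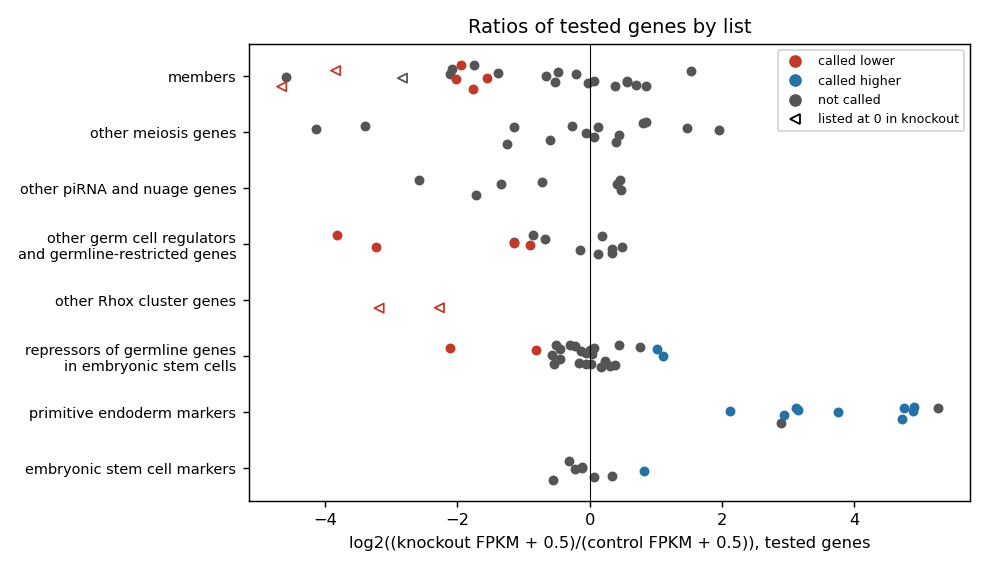
Log2 ratio of knockout over control (with 0.5 FPKM added to each) of every tested gene in 8 lists, coloured by the authors' call, with open triangles for genes listed at 0 in the knockout. Members above 0 in both groups reach from -4.60 (Sohlh2) to 1.53 (Rec8), and the primitive endoderm markers all lie above 0.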

How the data were processed

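E14 cells were profiled by ChIP-seq (36 samples and 1 input) and RNA-seq (6 libraries, 3 control and 3 MTF2 knockout). The submitters' processing notes name TopHat2 2.1.0, Cuffdiff 2.2.1.3, Bowtie 1.0 and deepTools, and 2 builds (mm9, mm10) whose roles they leave out. Per the file headers, the authors deposited 1 FPKM value per gene and group, a log2 fold change, a test statistic, which is a score, and p-value and q-value columns. The p-value has a floor of 5e-05, and a Benjamini-Hochberg (BH) adjustment of it gave back the deposited q to within 5.2e-07. All 46 members overlapped the RefSeq gene of their symbol on GRCm38.p6, so coordinates are given as mm10.

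Calls are status OK (11362 genes) and q of at most 0.05 by the authors' Cuffdiff, over all tested genes; 11098 genes were not tested and 2 failed. Ratios used a pseudocount of 0.5 FPKM. Library depth is unknown, and the q values alone carry replicate spread. Apart from the alternative that took p from the deposited statistic as a normal score, no test was made here. No set was tested. The BH step and the motif search were tested on simulated data. Tables were handled in Python 3.11.15 with pandas 2.3.3.

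The members and all lists were chosen with earlier results of these data known. Named genes were all tested members, members of at least 1 FPKM in either group and the other members by name. Called genes of the other lists, 7 repressors, Mtf2 and the nearest tested neighbours were also named. Rec114, Terb2, Ccnb1ip1, Gtsf1, Pld6, Pnldc1, Tdrd12, Mybl1 and Rhox2d were chosen after their values were seen. So were Prdm14, Dppa3, Tfcp2l1, Hprt, Max and the 4 members shown because their promoters hold both kinds of letters. Protein sequences were not used here. Alternatives were a q of 0.01, a 2-fold minimum, FPKM filters, BH recomputed here, a p taken from the test statistic as a normal score, pseudocounts of 0.1 and 1, median centring, and leaving out genes listed at 0, chromosomes 8 and 14, or chromosome X. Leaving out members that share a locus entry was added after seeing the data.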

Additional observations from a re-analysis of the deposited data

How the results depend on the processing

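The count of 6 members called lower was 4 at a q of 0.01 (Smc1b and Syce1 were lost), where all genes gave 336 lower and 439 higher against 685 and 784 (318 and 531 with a 2-fold minimum), and 4 without genes listed at 0. It was 5 without chromosome X and 6 under the other alternatives except 1: with p taken from the deposited statistic as a normal score it was 1. There the genes listed at 0 have no statistic, Dmrt1, Mov10l1, Syce1 and Smc1b were lost, and the call was Sohlh2; over all genes that setting called 29 lower and 95 higher. No member was called higher by Cuffdiff q or under any alternative run. The median log2 ratio of members, -1.03, stayed below 0 throughout. It was -1.38 for members of at least 1 FPKM in either group, -0.16 over all 46 members with no filter, -1.12 and -0.93 with pseudocounts of 0.1 and 1, and -1.02 after centring. It was -0.52 without genes listed at 0, -1.55 without chromosomes 8 and 14, and -1.65 without members that share a locus entry; the cause was not tested. Motif shares of member promoters in the 200 bases before the start were 48.6% for either kind, 29.7% for the E-box, 27.03% for the E2F6 letters and 8.11% for both, against 51.4%, 35.1%, 35.1% and 18.9%. Leaving out each library could not be run, since values per library are not in the table used. No paired analysis was possible because each group has 1 pooled value. Without replicate values, the wide gaps of Sohlh2, Nanos3 and Syce3 cannot be set against the spread between libraries.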

Other observations

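Genes of several families named by symbol were counted, with the families picked after the data were seen. The background was 6.03% lower and 6.9% higher over all tested genes. Of 33 genes with a Tex number, which include members and genes of the other lists, 11 were tested. Of these 1 was called lower and 0 higher by Cuffdiff (0 higher also at an unadjusted p under 0.05). The called gene was Tex13c2, an X-linked gene at 1.79 FPKM in control cells and listed at 0 in the knockout (q = 0.0012 in the authors' deposited table). Of 29 Spata genes 10 were tested and 1, Spata13, was called higher (3.48 to 6.77 FPKM, q = 0.0184 in the authors' deposited table); it lies on chromosome 14. Of 21 Mage genes 3 were tested and 0 were called by Cuffdiff (0 also at an unadjusted p under 0.05). Of 7 Tdrd genes, which include members, 2 were tested and 0 were called by Cuffdiff (0 also at an unadjusted p under 0.05), with a median log2 ratio of 0.78. The 3 Piwil genes are all members, and of these 1 was tested and 0 were called. Among 15 Dnah genes, axonemal dynein heavy chains, Dnah8 was the 1 tested and was called higher, from 5.87 to 21.4 FPKM (q = 0.0012 in the authors' deposited table).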
